A study of Mus musculus with 9 samples.

Results

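The comparison described here sets the blood of irradiated arthritic mice (CIA+THz, n = 3) against that of arthritic mice that were not irradiated (CIA, n = 3), over every gene in the deposited matrix. Both groups were male DBA/1 mice with collagen-induced arthritis (CIA), a model of rheumatoid arthritis in which immunization with type II collagen in Freund's adjuvant is followed by swelling of the joints. The labels give an age of 7 weeks for every mouse. In the methods this is the age at grouping, before immunization and irradiation, so the mice were older when blood was drawn. The CIA+THz mice additionally received continuous-wave radiation at 0.1 THz on the swollen ankle, for 30 min per day over 14 days, under isoflurane. Blood was drawn from an eye vein, and the labels do not say whether a library is 1 mouse or a pool. The methods do not say whether the CIA mice were anaesthetized in the same way, so irradiation and anaesthesia cannot be told apart. A Ctrl group of 3 libraries from male DBA/1 mice of the same labelled age, without arthritis and without irradiation, is given beside the comparison as values only. Of the 20926 genes in the matrix, 12366 were measured well enough to be tested, and 4212 of those had a mean of at least 10 rescaled FPKM over the 6 libraries and are called well-expressed here.

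Blood RNA is a mixture. Neutrophils carry granule proteins that are transcribed while the cells mature in the marrow, so the messages of these proteins mark young neutrophils in the circulation, whereas messages such as S100a8 and S100a9 last in mature neutrophils. Classical monocytes are recruited into inflamed tissue, and patrolling monocytes crawl along vessel walls. Reticulocytes, the last precursors of red cells, still hold abundant messages of heme synthesis and of the ubiquitin enzymes that clear their organelles. In such a mixture fewer cells of a type and less RNA per cell cannot be told apart, and this holds for each result below. The values are relative to the other RNA of a library, so a higher list need not mean more cells. By blood cell counts, the paper reported fewer lymphocytes, neutrophils and monocytes in CIA+THz than in CIA mice.

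FPKM is the number of mapped fragments scaled by transcript length and library total. It holds no counts, the depth of the libraries is unknown from these values, and every value was divided by 1 median-of-ratios factor per library (rescaled FPKM). The factors were 0.909 to 0.992 in CIA and 1.099 to 1.24 in CIA+THz, so that this choice moved the median log2 fold change of all genes from 0.29 with FPKM as deposited to 0.03. Genes above 0 numbered 11801 to 12066 in CIA and 12449 to 12807 in CIA+THz. The samples are labelled blood leukocyte, yet Alas2, the erythroid enzyme that starts heme synthesis, took 16.3% to 16.7% of the summed FPKM in CIA and 11.4% to 13.99% in CIA+THz. Its part in the results was not tested. The 2 defining markers each of neutrophils, monocytes, T cells, B cells, NK cells, platelets and red cell precursors were present in all 9 libraries, whereas of the dendritic cell markers Flt3 was between 0.2599 and 2.14 and Zbtb46 was near 0 or listed at 0.

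Among well-expressed genes the comparison was led by lower transcripts of neutrophil granules, of Pira4, of Cdr2 and of Apoe, and by smaller rises of Med1, Bcl2 and other genes. A gene was called at an unadjusted p under 0.05 in limma together with an absolute log2 fold change above 0.67. Over all genes 561 were called (4.54%), 363 higher (2.94%) and 198 lower (1.6%) in CIA+THz. Among well-expressed genes 80 were called (1.9%), 24 higher (0.57%) and 56 lower (1.33%). None of the 12366 genes had an adjusted p under 0.05 by limma with Benjamini-Hochberg adjustment, and the smallest was 0.164. Under the alternatives run, genes passed that threshold only without a variance trend (14), in 1 fit of all 3 groups (2) and without a filter on low genes (12). The p threshold without the fold threshold took 1634 genes (13.2%), 728 higher (5.89%) and 906 lower (7.33%). Without CIA replicate 1 the count of well-expressed genes called higher was 39, and without CIA+THz replicate 2 it was 16. Among well-expressed genes the looser rule took 897 (21.3%), 225 higher (5.34%) and 672 lower (16%).

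The split between directions depended on the scaling. With FPKM as deposited, 188 well-expressed genes were called higher and 12 lower, with an upper-quartile factor 29 and 44, and after quantile normalization 40 and 35. Over all genes the counts were 1133 higher and 66 lower as deposited, 412 and 176 with the upper-quartile factor, and 253 and 279 after quantile normalization. No well-expressed called gene changed sign between these scalings, and 36 of the 80 were called in the same direction under all 4, 12 lower and 24 higher. The median log2 fold change of well-expressed genes was -0.08, and 0.19 with FPKM as deposited. That shift favours higher calls, so holding under all 4 scalings was a weak check for higher genes. Changes of gene groups are therefore given as the median of the group minus the median of all genes tested in the same fit. A single factor per library leaves this difference nearly the same by construction, so its value as deposited is no separate check.

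Of the well-expressed genes 61.9% had lower values in CIA+THz, and 22.2% with FPKM as deposited. The direction also went with the level of a gene. Genes with a mean of 0.1 to 1 rescaled FPKM had a median log2 fold change of 0.23, and those from 1 to 10 one of 0.09. From 10 to 100 the median was -0.05, and in the 616 genes above 100 it was -0.25, with 86.04% of them lower in CIA+THz. In that highest range 21 genes were called lower and 1 higher. Quantile normalization, which gives all libraries the same distribution, brought these medians to -0.06, 0.02, 0.00129 and 0.00717.

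Granule proteins of immature neutrophils were among the well-expressed genes that fell most, along with Pira4 and Cdr2. Camp encodes cathelicidin, an antimicrobial peptide stored in specific granules. It was 68.6, 108 and 155 rescaled FPKM in the 3 CIA libraries and 18.5, 37.3 and 23.7 in the 3 CIA+THz libraries (log2 fold change -2.04 ± 0.35, SE, adjusted p = 0.189). Ltf encodes lactoferrin, an iron-binding protein of the same granules. Its values were 29.8, 65.7 and 122 in CIA and 11.9, 20.5 and 17.4 in CIA+THz (log2 fold change -1.93 ± 0.49, adjusted p = 0.236). For Ngp, neutrophilic granule protein, they were 265, 562 and 938 in CIA and 120.4, 188 and 130.1 in CIA+THz (log2 fold change -1.86 ± 0.44, adjusted p = 0.213). The calls of Camp, Ltf and Ngp held under all 4 scalings. The calls also held without each library in turn. In all 3 genes CIA replicate 1 was the lowest CIA library and still above every CIA+THz library. The Ctrl libraries held 1.64, 3.36 and 7.61 of Camp, 3.19, 3.74 and 3.85 of Ltf and 70.1, 88.7 and 41.6 of Ngp, so the CIA libraries were the high ones and the CIA+THz libraries were closer to Ctrl in level. Leading genes were chosen for their distance from CIA, which favours such an order, and it was not tested.

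Camp, Ngp and Ltf lie within 1.195 Mb of each other on chromosome 9, at 109847379 to 109849617, 110419747 to 110423012 and 111019271 to 111042767 of GRCm38. Because they moved together, their RefSeq (GRCm38.p6) promoter sequences are shown from 150 bases before to 20 after the annotated start. The RefSeq starts lie 161 (Camp), 61 (Ngp) and 21 bases (Ltf) inside the GENCODE genes whose coordinates are given above, so that the whole Camp window lies within the GENCODE gene. Capitals mark the letters TTNNGNAA or, read on the other strand, TTNCNNAA, a loose form of the site of the C/EBP factors, a family known for driving granule genes in maturing neutrophils.
Camp, chr9:109849437-109849606, minus strand: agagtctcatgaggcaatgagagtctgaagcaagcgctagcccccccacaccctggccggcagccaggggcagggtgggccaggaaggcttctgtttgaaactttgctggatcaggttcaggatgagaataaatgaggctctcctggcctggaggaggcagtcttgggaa
Ngp, chr9:110419658-110419827, plus strand: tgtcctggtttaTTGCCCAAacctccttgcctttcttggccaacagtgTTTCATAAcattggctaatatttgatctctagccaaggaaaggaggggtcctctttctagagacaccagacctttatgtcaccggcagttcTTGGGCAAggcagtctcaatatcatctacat
Ltf, chr9:111019142-111019311, plus strand: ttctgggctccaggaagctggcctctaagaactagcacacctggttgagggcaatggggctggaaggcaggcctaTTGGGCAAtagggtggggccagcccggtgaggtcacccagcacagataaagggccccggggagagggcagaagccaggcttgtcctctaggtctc
The Ngp window held 3 matches, the Ltf window 1 and the Camp window 0. The capitals next to the start in Ngp and those in Ltf are the same 8 letters. Of all 32851 RefSeq promoters in the table, 24.9% held a match in the same 170-base window.

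The other granule genes followed the same direction in part. Of the 13 neutrophil granule genes tested, 11 were lower and 5 were called lower, against 1.6% of all genes called lower. The median of the list was -0.67 relative to all genes (-0.74 as deposited, -0.83 after quantile normalization). Cd177, a surface protein of neutrophils that is also stored in granules, fell from 64.04, 105 and 97.5 to 50.2, 44.1 and 40.5 (log2 fold change -0.95 ± 0.20). Chil3, a chitinase-like protein of neutrophils and macrophages, fell from 158, 143 and 159 to 82.9, 81.6 and 96.3 (-0.82 ± 0.10). The CIA and CIA+THz libraries did not overlap in either. The call of Chil3 ended with FPKM as deposited and after quantile normalization. The summed list was 828, 1393 and 1836 in CIA and 570.2, 652 and 536 in CIA+THz. In Ctrl it was 793, 927 and 528. Mpo, Elane, Prtn3 and Ctsg, proteases and the peroxidase of the primary granules that promyelocytes make, are members with values between 0 and 1.95 in these 6 libraries, and none of them was called.

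Outside the granule genes, Cdr2 had the largest change of an abundant transcript. It encodes a coiled-coil protein known as the antigen of a paraneoplastic cerebellar degeneration (chromosome 7 of GRCm38, 120957036 to 120982312). Its rescaled FPKM was 1079.9, 699 and 939 in CIA and 184, 283 and 273 in CIA+THz (log2 fold change -1.88 ± 0.22, adjusted p = 0.164), and 549, 575 and 352 in Ctrl. Every CIA+THz library was thus below every CIA and every Ctrl library. Apoe, the apolipoprotein that carries cholesterol and that monocytes and macrophages make (chromosome 7 of GRCm38, 19696109 to 19699188), fell from 305, 308 and 342 to 161, 168 and 136, with a log2 fold change of -1.04 ± 0.11 (adjusted p = 0.164). Its Ctrl values were 83.9, 88.999 and 87.96, and the 3 groups did not overlap. The calls of Cdr2 and Apoe held under all 4 scalings.

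Further genes among the 12 leading lower ones were less abundant. Mpst, a sulfurtransferase of cysteine breakdown, fell from 68.9, 70.1 and 90.6 to 38.04, 49.3 and 30.7 (-0.97 ± 0.19 on the log2 scale). Ripor3, which encodes a protein of the RIPOR family, fell from 14.05, 29.2 and 18.1 to 9.86, 6.02 and 5.44 (-1.49 ± 0.33). Stfa1, a cysteine protease inhibitor of the stefin A cluster whose near-identical copies can share reads, fell from 13.3, 13.8 and 14.6 to 9.37, 5.31 and 6.27 (-1.03 ± 0.22). In each of these 3 genes the CIA+THz libraries were all below the CIA libraries. H2bc6, a replication-dependent histone H2B gene with many like copies, fell from 73.5, 108 and 39.2 to 26.03, 23.2 and 38.4 (-1.25 ± 0.37). The call of H2bc6 ended without CIA+THz replicate 2, with a p of 0.0535. Evi2b, a membrane protein of leukocytes, was 11.7, 26.6 and 11.7 in CIA, 7.13, 11.1 and 2.33 in CIA+THz and 11.3, 62.1 and 12.95 in Ctrl. Its annotated exons overlap those of Evi2 on the same strand, and it had the weakest evidence of the 12 (-1.42 ± 0.59). The call of Evi2b ended without CIA replicate 1, 2 or 3 or CIA+THz replicate 1 or 3, with a largest p of 0.165. Without CIA+THz replicate 3 the log2 fold change was -0.79. The call of Evi2b ended with FPKM as deposited and with the upper-quartile factor. Ripor3 also overlaps an antisense gene, Gm14236.

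Pira4, a paired immunoglobulin-like receptor of myeloid cells, had the largest fold change of all well-expressed genes (-5.23 ± 1.12, adjusted p = 0.21) and the least certain level. It was 22.1, 29.7 and 30.3 in CIA and 2.16, 0 and 1.601 in CIA+THz, where 1 library is listed at 0. In Ctrl it was 28.1, 0 and 0, with 2 libraries listed at 0 and 1 at the level of CIA. Its log2 fold change was -3.80 without CIA+THz replicate 2, the library at 0, -6.04 without CIA+THz replicate 1 and -5.84 without CIA+THz replicate 3. The Pira genes are near-identical copies of each other, among which reads can be split, and the related Pira11 was 30.5, 12.2 and 11.6 in CIA and 33.7, 0 and 29.8 in CIA+THz. Pira4 had no match in the annotation used here, so no position is given. The call of Pira4 held under all 4 scalings.

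The rises among well-expressed genes were smaller, and no gene of the 12 leading ones exceeded a log2 fold change of 1.08. Med1, the subunit of the Mediator complex that nuclear receptors bind (chromosome 11 of GRCm38, 98152154 to 98193293), was 20.2, 25.4 and 26.1 in CIA and 43.4, 47.4 and 43.1 in CIA+THz (log2 fold change 0.90 ± 0.12, adjusted p = 0.172). Its Ctrl libraries were at 43.9, 15.9 and 41.7, with 15.9 below all CIA libraries, 41.7 between the groups and 43.9 within the CIA+THz range. Bcl2, which protects lymphocytes and other cells from apoptosis (chromosome 1 of GRCm38, 106538178 to 106714274), rose from 62.6, 65.9 and 67.7 to 111, 99.7 and 137 (0.81 ± 0.13, adjusted p = 0.172). The Ctrl libraries, at 115, 103 and 123, lay in the range of CIA+THz and above all CIA libraries. Lig3, the DNA ligase of mitochondria and of single-strand break repair, rose from 8.43, 9.38 and 8.07 to 16.04, 13.8 and 14.4 (0.77 ± 0.12). Rev1, a DNA polymerase that copies past damaged bases, rose from 11.5, 6.83 and 10.5 to 16.8, 16.2 and 17.9 (0.85 ± 0.20). The call of Rev1 ended without CIA replicate 2, with a log2 fold change of 0.62. The exons of Lig3 and Rev1 overlap those of Rffl and Eif5b on the other strand, and with a kit that does not mark strand such reads cannot be told apart. The same holds for Bcl2 and its antisense gene D630008O14Rik. The calls of Gnl3, Med1, Fabp4, Rev1, Clec2i, Yipf6, Bcl2, Cd5, Prf1, Lig3, Eif2s1 and Inpp4b held under all 4 scalings. For these higher genes that is a weak check, because FPKM as deposited moved the fold changes upward.

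The next leading higher genes have various roles. Gnl3, nucleostemin of the nucleolus, rose from 4.06, 8.39 and 6.89 to 9.17, 16.4 and 15.1 (1.08 ± 0.33), and its annotated exons overlap small nucleolar RNA genes and Pbrm1. The call of Gnl3 ended without CIA+THz replicate 2 or 3, with a largest p of 0.0571. Eif2s1, the alpha subunit of the initiation factor eIF2, rose from 8.41, 6.72 and 7.82 to 11.9, 12.6 and 14.8 (0.77 ± 0.15). Inpp4b, a phosphatase of phosphoinositides, rose from 9.89, 9.35 and 11.9 to 15.6, 18.4 and 18.6 (0.76 ± 0.14). Yipf6, a membrane protein of the Golgi, rose from 11.2, 6.45 and 11.5 to 16.1, 14.02 and 20.9 (0.83 ± 0.26). The call of Yipf6 ended without CIA replicate 2 or CIA+THz replicate 3, with a log2 fold change as near 0 as 0.56 and a largest p of 0.0664. Clec2i, a C-type lectin-related membrane protein, rose from 6.49, 6.21 and 9.88 to 10.9, 16.1 and 13.1 (0.83 ± 0.23).

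The last 3 of the 12 are known from particular blood cells. Cd5, an inhibitory receptor of T cells and some B cells, rose from 68.2, 53.2 and 71.9 to 149.5, 94.6 and 96.2 (0.79 ± 0.21), with CIA+THz replicate 1 the highest library. The call of Cd5 ended without CIA replicate 2 or CIA+THz replicate 1, with a log2 fold change as near 0 as 0.58. Prf1, the pore-forming protein of cytotoxic cells, rose from 37.5, 23.9 and 18.7 to 43.2, 38.4 and 52.3 (0.79 ± 0.26). The call of Prf1 ended without CIA replicate 2 or 3 or CIA+THz replicate 1 or 3, with a log2 fold change as near 0 as 0.56 and a largest p of 0.0758. Fabp4, a fatty acid-binding protein, rose from 16.3, 17.5 and 7.84 to 18.5, 26.4 and 28.8 (0.88 ± 0.33), while Ctrl held 29.4, 35.03 and 27.6. The call of Fabp4 ended without CIA replicate 3 or CIA+THz replicate 2 or 3, with a log2 fold change as near 0 as 0.51 and a largest p of 0.115.

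**Figure D1:**
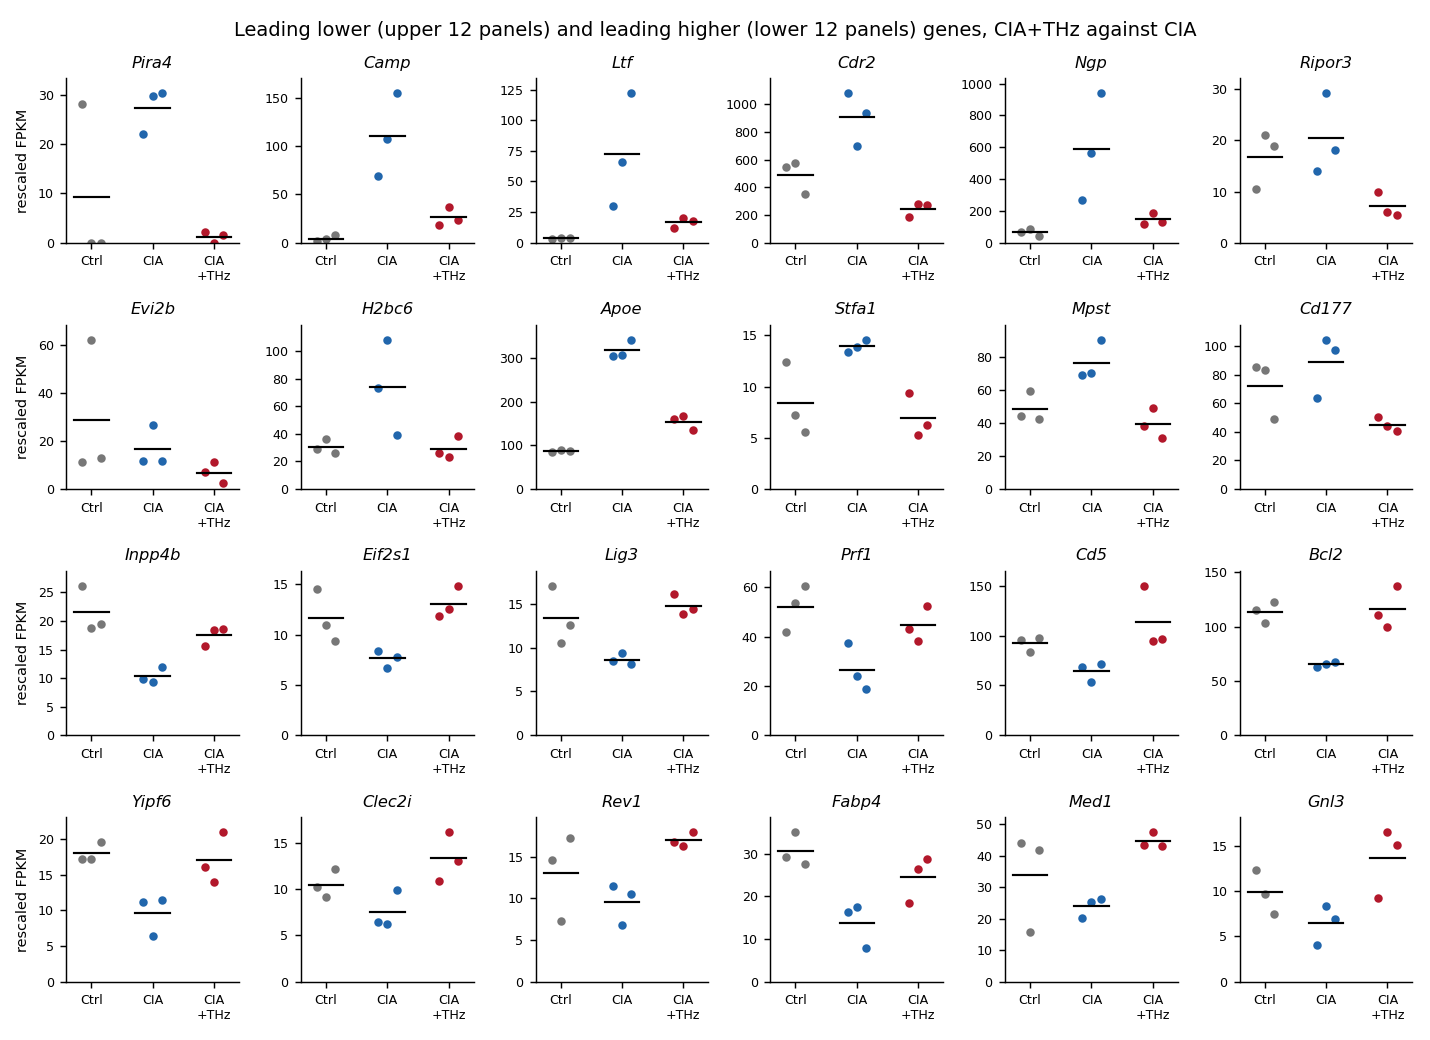
Rescaled FPKM (vertical axes, from 0) of the 12 leading lower genes (upper rows) and the 12 leading higher genes (lower rows) in the Ctrl (grey), CIA (blue) and CIA+THz (red) groups, where a point is a library and a black bar the mean of 3. The red and blue points do not overlap in any panel, which is part of how the genes were chosen, and Camp, Ltf, Ngp and Apoe are low in Ctrl while Bcl2 and Yipf6 are high there. A choice by distance from CIA also favours grey points on the side of the red ones.

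Genes of mature neutrophils and of classical monocytes were lower in CIA+THz. All 11 mature neutrophil genes were lower, 10 of them at an unadjusted p under 0.05 and 2 called, against 7.33% and 1.6% of all genes. Of well-expressed genes, to which 10 of the 11 belong, 61.9% were lower, 16% at that p and 1.33% called. The median of the list relative to all genes was -0.45, -0.44 with FPKM as deposited and -0.15 after quantile normalization. With FPKM as deposited 1 member was lower at an unadjusted p under 0.05. Retnlg, a secreted resistin-like protein of neutrophils, fell from 488, 656 and 575 to 351, 309 and 304 (-0.83 ± 0.13). Il1r2, the interleukin-1 decoy receptor, was the other called member (8.82, 15.98 and 9.07 against 7.34, 6.74 and 5.91, -0.70 ± 0.25). The calls of Retnlg and Il1r2 ended with FPKM as deposited, and the call of Retnlg ended after quantile normalization. Csf3r, the receptor for granulocyte colony-stimulating factor, was 615, 835 and 743 in CIA and 620.3, 565 and 551 in CIA+THz (-0.33 ± 0.14). S100a9, a subunit of calprotectin and one of the most abundant transcripts of blood, was 11212, 14496 and 12848 in CIA and 9274, 8279 and 8096 in CIA+THz (-0.58 ± 0.23, not called). For its partner S100a8 the values were 1247, 1551 and 1540.0 in CIA and 1069.5, 1079 and 975 in CIA+THz. The groups did not overlap for either subunit, although after quantile normalization the log2 fold change of S100a9 was 0.04. The summed list was 15543 to 20129 in CIA, 11584 to 13172 in CIA+THz and 13953 to 22534 in Ctrl. S100a9 made up most of it in CIA and CIA+THz.

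All 11 classical monocyte genes were lower, 7 at an unadjusted p under 0.05 and 3 called. Of well-expressed genes 61.9% were lower, 16% at that p and 1.33% called. The median of the list was -0.45 relative to all genes and -0.17 after quantile normalization. Fn1, fibronectin, fell from 121, 97.3 and 111 to 58.7, 60.97 and 66.1 (-0.82 ± 0.11), and Ctrl held 34.4, 27.4 and 43.04. Ms4a6d, a membrane protein of monocytes, fell from 52.2, 47.9 and 46.4 to 30.7, 28.8 and 26.8 (-0.76 ± 0.10), with 18.7, 11.4 and 13.5 in Ctrl. Cd14, the lipopolysaccharide co-receptor, fell from 71.3, 83.7 and 78.9 to 46.3, 37.99 and 49.9 (-0.81 ± 0.13). Cd14 was 102, 90.9 and 68.6 in Ctrl, with 2 of these libraries above all CIA libraries and 1 below them. The CSF1 receptor gene Csf1r was 192, 204 and 201 in CIA and 159, 137 and 150.2 in CIA+THz (-0.42 ± 0.09, not called). The summed list had narrow ranges, 5712 to 6346 in CIA, 3847 to 4186 in CIA+THz and 3449.8 to 3831 in Ctrl. Such a sum can rest on 1 abundant gene, so its ranges do not describe all members. With FPKM as deposited 4 of the 11 members were higher, and 4 were lower at an unadjusted p under 0.05. The calls of Fn1, Ms4a6d and Cd14 held without each library in turn. The calls of Fn1, Ms4a6d and Cd14 ended with FPKM as deposited.

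Patrolling monocyte genes went the other way. All 11 had higher values in CIA+THz, 5 of them at an unadjusted p under 0.05 and 2 called, against 5.89% and 2.94% of all genes, with a median of 0.38 relative to all genes, 0.39 as deposited and 0.39 after quantile normalization. The called members were Fabp4 and Ace. Ace, the angiotensin-converting enzyme, rose from 10.7, 5.86 and 8.14 to 12.9, 12.4 and 13.3 (0.68 ± 0.22). The call of Ace ended without CIA replicate 2 or CIA+THz replicate 1 or 3, with a log2 fold change as near 0 as 0.46 and a largest p of 0.0587. The calls of Fabp4 and Ace held under all 4 scalings, a weak check for higher genes. Spn, leukosialin (CD43), was 44.01, 40.4 and 45.6 in CIA and 54.03, 50.96 and 51.01 in CIA+THz without overlap, though its log2 fold change of 0.26 ± 0.09 is under the threshold. The summed list was 236, 172 and 228 in CIA and 258, 254 and 289.6 in CIA+THz, without overlap, and 209, 202 and 225 in Ctrl. The difference between the lists of classical and patrolling monocytes was not tested.

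The lymphocyte lists moved in the same direction as the patrolling monocyte list. These values are relative to the other RNA, and the lymphocyte count that the paper reported was lower in CIA+THz than in CIA. All 13 T cell genes were higher, 7 at an unadjusted p under 0.05 (5.89% of all genes), and Cd5 alone was called. The median relative to all genes was 0.31 for T cell, 0.35 for B cell and 0.49 for NK cell genes, and 0.40, 0.44 and 0.45 after quantile normalization. Of the 11 B cell genes 10 were higher and 3 had an unadjusted p under 0.05. Among them Pax5, the transcription factor that keeps B cell identity, was 14.01, 14.4 and 10.6 in CIA and 17.03, 21.9 and 20.6 in CIA+THz (0.61 ± 0.16), and Fcer2a, the low-affinity IgE receptor, 11.6, 12.6 and 10.5 against 17.6, 19.7 and 15.6 (0.60 ± 0.13). Neither passed the fold threshold. Of the 9 NK cell genes, Prf1 and the receptor gene Klre1 were called higher, the latter at 1.396, 0.199 and 0.246 in CIA and 1.94, 1.17 and 1.61 in CIA+THz. Of all genes 2.94% were called higher. Gzma, granzyme A, was 56.3, 17.8 and 43.5 in CIA and 56.2, 39.9 and 71.2 in CIA+THz, which overlap. The call of Klre1 ended without CIA replicate 2 or 3 or CIA+THz replicate 1, 2 or 3, with a largest p of 0.132. Without CIA replicate 1 the log2 fold change of Klre1 was 2.35, in place of 1.61. The call of Klre1 ended after quantile normalization.

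The remaining cell types were sparse. Of 8 plasma cell genes, Jchain, the joining chain of secreted antibodies, was called higher (6.69, 5.197 and 6.45 in CIA, 6.88, 14.7 and 12.2 in CIA+THz) and was 71.4, 80.4 and 63.5 in Ctrl, far above both groups. The secretory transcription factor gene Xbp1 was 42.5, 35.9 and 40.6 against 30.5, 25.4 and 31.8 (-0.44 ± 0.12, not called). The call of Jchain ended without CIA replicate 2 or 3 or CIA+THz replicate 2 or 3, with a log2 fold change as near 0 as 0.59 and a largest p of 0.0956. Of 9 eosinophil and basophil genes tested, 2 were called higher (2.94% of all genes), both known from basophils and mast cells. They were Cpa3, a mast cell carboxypeptidase (4.52, 3.26 and 3.83 against 7.77, 6.68 and 7.62), and Fcer1a, the alpha chain of the high-affinity IgE receptor (2.08, 2.13 and 3.23 against 4.12, 4.2001 and 4.37). The call of Fcer1a ended without CIA replicate 1, with a log2 fold change of 0.666. Gata2, a transcription factor of basophils and progenitors, was 8.52, 9.54 and 7.24 against 13.5, 12.2 and 11.8 (0.57 ± 0.14). The calls of Jchain, Cpa3 and Fcer1a held under all 4 scalings, a weak check for higher genes. No dendritic cell gene was called among 9 tested.

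**Figure D2:**
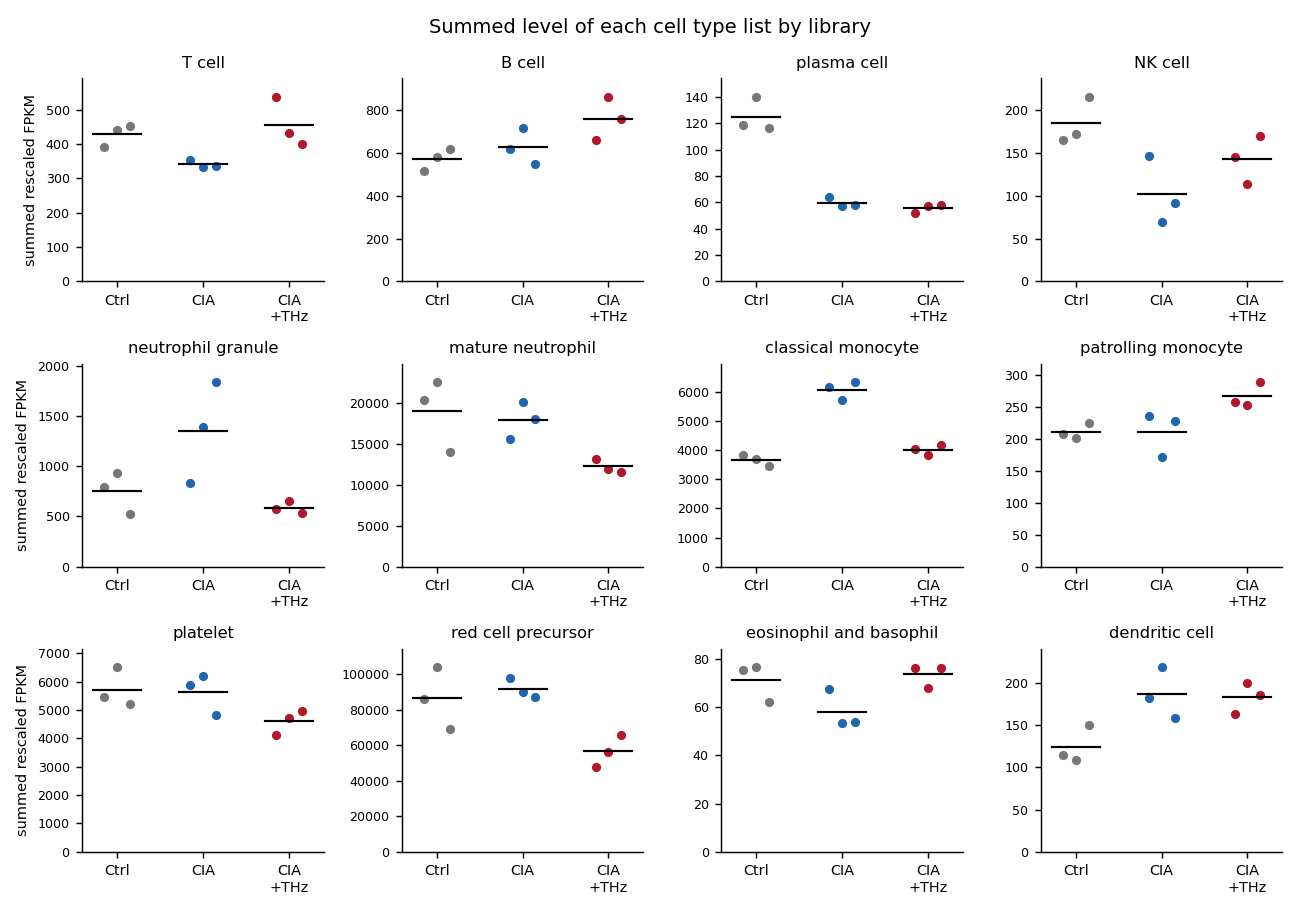
Summed rescaled FPKM (vertical axes, from 0) of the members of each of the 12 cell type lists in the Ctrl (grey), CIA (blue) and CIA+THz (red) libraries, where a point is a library and a black bar the mean of 3. The CIA+THz libraries lie below all CIA libraries for the neutrophil, classical monocyte and red cell precursor lists and above them for the T cell, patrolling monocyte and eosinophil and basophil lists. A sum can rest on 1 gene. Alas2 made up 97383 of 98068 in the red cell precursor sum of CIA replicate 1, and 4 of the 14 members of that list were higher. S100a9 made up most of the mature neutrophil sum in CIA and CIA+THz.

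Transcripts of red cell precursors were among the most abundant, and no member of their lists was called. Alas2, at 97383, 89315 and 86779 in CIA and 47174, 55691 and 65083 in CIA+THz, did not pass (log2 fold change -0.71 ± 0.48), although the groups did not overlap. Quantile normalization gives the top gene the same value in every library, so Alas2 could not differ there. Of the 14 red cell precursor genes and the 13 heme synthesis genes, 0 were called by limma, and 0 and 1 were lower at an unadjusted p under 0.05. Their medians relative to all genes were -0.11 and -0.13. Bpgm, which makes the bisphosphoglycerate that lowers the oxygen affinity of hemoglobin, was 12951, 8019 and 11068 in CIA and 6684, 9376 and 9649 in CIA+THz, with overlap. Isca1, an iron-sulfur cluster protein of mitochondria, was 6189.8, 4979 and 5164 against 3249.8, 3949 and 4493, without overlap but not called (-0.49 ± 0.20). Fth1, the heavy chain of ferritin, was 6440.5, 5758 and 4937 in CIA and 4030.1, 4535 and 4959 in CIA+THz (-0.34 ± 0.19), and Lyz2, the lysozyme of neutrophils and monocytes, 4792, 4436 and 4916 against 2961, 2851 and 3078 (-0.669 ± 0.15). Neither was called.

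Genes that remodel reticulocytes had lower values as a list, at a share of small p like that of other genes. All 18 tested had lower values in CIA+THz, and 3 had an unadjusted p under 0.05, against 16% of well-expressed genes lower at that p. With FPKM as deposited 8 of them were higher. The list had a median of -0.32 relative to all genes (-0.31 as deposited, -0.11 after quantile normalization). Ube2l6, a conjugating enzyme of ubiquitin and ISG15 that late erythroid cells hold in quantity, fell from 8795, 6592 and 7421 to 3824, 4671 and 5558 (-0.71 ± 0.23). The call of Ube2l6 ended without CIA replicate 1 or CIA+THz replicate 1 or 2, with a log2 fold change as near 0 as -0.57 and a largest p of 0.0735. Ube2o, the ubiquitin enzyme that clears ribosomes from reticulocytes, fell from 479, 419.5 and 534 to 232, 339.7 and 322 (-0.69 ± 0.17). The call of Ube2o ended without CIA replicate 3 or CIA+THz replicate 1, with a log2 fold change as near 0 as -0.52. The calls of Ube2l6 and Ube2o ended with FPKM as deposited and after quantile normalization, and the call of Ube2o ended with the upper-quartile factor. Of the 13 platelet genes 12 were lower and 7 had an unadjusted p under 0.05, none of them called, against 61.9% and 16% of well-expressed genes. Gp9, a subunit of the receptor for von Willebrand factor, was 339, 382 and 294 in CIA and 201, 229.5 and 275 in CIA+THz (-0.53 ± 0.15), and Itga2b, the alpha chain of the fibrinogen receptor, 236, 323 and 202 against 155, 181 and 191 (-0.51 ± 0.18). The platelet median relative to all genes was -0.34, and -0.15 after quantile normalization, and with FPKM as deposited no member was lower at an unadjusted p under 0.05.

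Ribosomal protein genes were the largest group that was lower together with the median-of-ratios factor. Of 79 genes of cytosolic ribosomal proteins, all well-expressed, 72 were lower, 33 at an unadjusted p under 0.05 and 6 called, and 0 were called higher. Among all well-expressed genes 16% were lower at that p and 1.33% called lower. The median relative to all genes was -0.28, and 0.03 after quantile normalization, where its direction turned. With FPKM as deposited the relative median was -0.27, but the median itself was 0.02 and 43 of the 79 genes were higher. At an unadjusted p under 0.05, 10 were then lower and 6 higher. Rplp0, the stalk protein of the large subunit, fell from 12878, 12372 and 10386 to 6342, 6717 and 7242 (-0.81 ± 0.21, and -0.23 after quantile normalization). The call of Rplp0 ended without CIA+THz replicate 2, with a p of 0.0567. Rpl31, of the same subunit, fell from 1067, 825 and 821 to 561, 557 and 542 and Rplp1, a stalk protein, from 796, 688 and 669.9 to 402, 429 and 473, with log2 fold changes of -0.70 and -0.72. Rpl41 was also called (2458, 1572 and 1621 against 915, 1059 and 1324). The call of Rpl31 ended without CIA replicate 1, with a log2 fold change of -0.57. The call of Rplp1 ended without CIA replicate 1 or CIA+THz replicate 1, with a log2 fold change as near 0 as -0.65. The calls of Rplp0, Rpl31, Rplp1 and Rpl41 ended with FPKM as deposited and after quantile normalization, and the call of Rpl31 ended with the upper-quartile factor. Many of these genes have processed pseudogenes that can take part of their reads.

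Translation initiation factors were split between directions. Of 33 tested, 15 were higher and 18 lower, 4 and 4 of them at an unadjusted p under 0.05, and Eif2s1 alone was called. Of all well-expressed genes 5.34% were higher and 16% lower at that p. The median of -0.04 relative to all genes turned to 0.04 after quantile normalization. Eif4a2, an RNA helicase of the cap complex, was 132, 128 and 147 in CIA and 175, 181 and 204 in CIA+THz (0.46 ± 0.10), and Eif5a, a factor that helps elongation past stalling residues, 63.8, 61.3 and 64.3 against 49.9, 50.9 and 51.9 (-0.31 ± 0.08). The difference between the lists was not tested.

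Of 74 respiratory chain subunits 56 were lower, 20 at an unadjusted p under 0.05, against 1 higher. Of well-expressed genes 16% were lower and 5.34% higher at that p. The median of the subunits was -0.24 relative to all genes and -0.12 after quantile normalization. With FPKM as deposited their own median was 0.07 and 44 of the 74 were higher, with 4 lower and 6 higher at that p. Cox7a2l, which joins respiratory complexes into supercomplexes, fell from 415, 353 and 381 to 198, 255 and 251 (-0.71 ± 0.13), and Ndufb6 of complex I was the other called member (2.33, 3.77 and 3.75 against 1.87, 1.67 and 2.14). The call of Cox7a2l ended without CIA replicate 1 or CIA+THz replicate 1, with a log2 fold change as near 0 as -0.59. The call of Ndufb6 ended without CIA replicate 2 or 3 or CIA+THz replicate 1 or 2, with a log2 fold change as near 0 as -0.63 and a largest p of 0.0864. Cox4i1, a core subunit of cytochrome c oxidase, was 278, 274 and 287 against 204, 213 and 177 (-0.50 ± 0.10, under the fold threshold). Mitochondrial ribosomal proteins differed little as a group: 36 of 78 were higher and 42 lower, with a median of -0.07 relative to all genes and Mrpl2 called lower (-0.674 ± 0.15). The call of Mrpl2 ended without CIA replicate 1 or 2 or CIA+THz replicate 1 or 2, with a log2 fold change as near 0 as -0.60. The calls of Cox7a2l, Ndufb6 and Mrpl2 ended with FPKM as deposited, and the call of Mrpl2 ended with the upper-quartile factor, and the call of Cox7a2l ended after quantile normalization. The constitutive proteasome had a median of -0.07 (0.00239 after quantile normalization) and no called member among 31, and Psmd8, a subunit of its cap, was 127, 124 and 128 in CIA and 97.5, 89.6 and 88.9 in CIA+THz (-0.46 ± 0.08).

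Transcript length went with the change. In 4 equal bins of the well-expressed genes by the length of the longest GENCODE transcript, the median log2 fold change was -0.20 for transcripts up to 2190 bases, -0.11 and -0.04 in the middle bins, and 0.02 above 4733 bases. The shortest bin held 37 genes called lower and 3 called higher, the longest 3 and 10. By GC content the medians ran from 0.04 in the lowest bin to -0.17 in the highest. A fit with a smooth correction for length left the ribosomal protein median at -0.16 and the respiratory chain median at -0.11 relative to all genes. It left the neutrophil granule genes at -0.54 and the classical monocyte genes at -0.48. Length, level and the kind of cell a gene comes from move together here, and their separate parts were not tested.

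**Figure D3:**
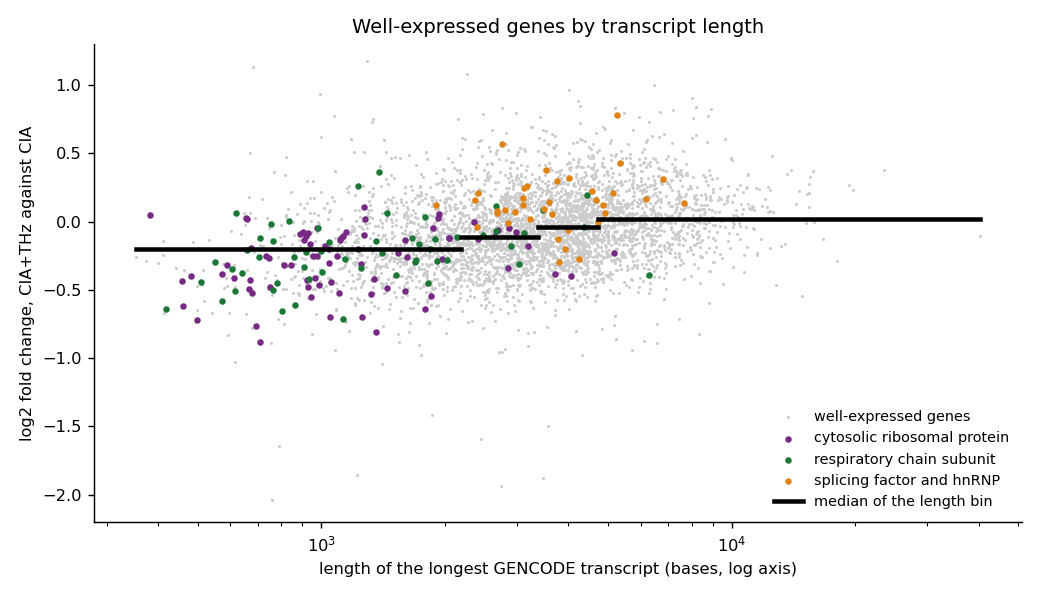
Log2 fold change of CIA+THz against CIA (vertical axis) of well-expressed genes against the length of the longest GENCODE transcript (horizontal log axis, bases), with cytosolic ribosomal protein genes in purple, respiratory chain subunits in green, splicing factors in orange and black bars for the median of each length bin. The bars rise from -0.20 to 0.02, the purple and green points lie mostly at the short end, and genes without a length, Pira4 among them, are not drawn.

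Groups known from phagocytes and from energy supply were lower in CIA+THz relative to all genes, with 1 call. Of 20 glycolysis genes 19 were lower and 9 had an unadjusted p under 0.05, against 61.9% and 16% of well-expressed genes, with a median of -0.37 relative to all genes and -0.17 after quantile normalization. Ldha, lactate dehydrogenase A, was 492, 497 and 506 in CIA and 387, 398 and 346 in CIA+THz (-0.40 ± 0.09), and Tpi1, triose phosphate isomerase, 53.7, 56.6 and 49.5 against 38.1, 40.1 and 42.01 (-0.41 ± 0.09). Of 25 lysosome genes 22 were lower, 13 at that p, with a median of -0.29 (-0.11 after quantile normalization). Psap, the precursor of the saposins that help break down sphingolipids, was 586, 594 and 637 against 467, 433 and 458 (-0.42 ± 0.09), and Ctsz, cathepsin Z, 45.4, 48.5 and 41.96 against 32.7, 34.3 and 32.4 (-0.45 ± 0.09). No glycolysis or lysosome gene passed the fold threshold by limma, and with FPKM as deposited none of either list was lower at an unadjusted p under 0.05. In that scaling 15 of the 25 lysosome genes and 5 of the 20 glycolysis genes were higher. The summed lysosome list was nonetheless 3908, 3792 and 3873 in CIA and 3048, 3047 and 3029 in CIA+THz, without overlap, and 3043, 3189 and 2843 in Ctrl.

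Of 19 complement and Fc receptor genes 15 were lower, 8 at an unadjusted p under 0.05, with a median of -0.32 relative to all genes and -0.22 after quantile normalization. Of well-expressed genes 16% were lower at that p, and with FPKM as deposited 9 of the 19 members were higher. Complement component C3 was 66.7, 71.6 and 67.2 in CIA and 50.4, 43.1 and 49.6 in CIA+THz (-0.52 ± 0.09), with 45.5, 46.7 and 46.7 in Ctrl. C5ar1, the receptor of the complement fragment that attracts neutrophils, was 75.7, 97.4 and 89.2 against 65.01, 59.99 and 59.7 (-0.50 ± 0.11). Fcer1g, the signalling chain shared by activating Fc receptors, was 594, 628 and 512 against 433, 389 and 389 (-0.51 ± 0.11), and Fcgr3, a low-affinity IgG receptor, 169, 189.8 and 167 against 135, 123 and 109 (-0.52 ± 0.11). These 4 genes did not overlap between groups but stayed under the fold threshold. They were named for their small p, which favours such separation. The called member was Cfb, factor B of the alternative pathway, at 10.7, 6.33 and 5.25 against 4.02, 4.19 and 4.31 (-0.75 ± 0.27). The call of Cfb ended without CIA replicate 1 or CIA+THz replicate 1, 2 or 3, with a log2 fold change as near 0 as -0.46 and a largest p of 0.0783. The call of Cfb ended with FPKM as deposited.

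Of 29 genes of the actin cytoskeleton 26 were lower and 9 had an unadjusted p under 0.05, with none called. Of well-expressed genes 61.9% were lower, 16% at that p. With FPKM as deposited 20 members were higher, and 5 were higher and 0 lower at that p. The median of -0.18 relative to all genes turned to 0.06 after quantile normalization. Myl6, a myosin light chain, was 4628, 4561 and 3488 in CIA and 2558, 2803 and 3070.4 in CIA+THz (-0.58 ± 0.18), and Arpc1b, a subunit of the actin-branching Arp complex, 174, 207 and 192 against 153, 146 and 152 (-0.34 ± 0.09). Leukocyte integrins and selectins had no called member among 16 and a median of -0.15, or 0.04 after quantile normalization. Itgb2, the beta chain of the leukocyte integrins, was 133, 147 and 139.9 against 123, 114 and 125 (-0.22 ± 0.08).

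Inflammatory signalling genes showed small differences in mixed directions. The interleukin-1 and inflammasome list (15 tested) had a median of -0.23 relative to all genes, with 5 lower and 2 higher at an unadjusted p under 0.05. Il1b, interleukin-1 beta, was 379, 369.9 and 409 in CIA and 302, 281 and 320.2 in CIA+THz (-0.36 ± 0.09), and Nlrp3, the sensor of its inflammasome, 19.7, 27.05 and 25.9 against 16.6, 12.8 and 17.001 (-0.64 ± 0.17). Il1rn, the receptor antagonist, was 89.9, 79.8 and 98.7 against 70.9, 65.7 and 61.3 (-0.44 ± 0.11). None of these 3 passed the fold threshold, and the groups did not overlap in any. List members were mainly named for a small p, which favours such separation. The called members were Il1r2, lower, and Nlrc4, another inflammasome gene, higher at a low level (0.529, 0.405 and 0.474 against 0.969, 1.35 and 0.673). The call of Il1r2 ended without CIA replicate 2 or CIA+THz replicate 2 or 3, with a log2 fold change as near 0 as -0.42 and a largest p of 0.0912. The call of Nlrc4 ended without CIA replicate 1, 2 or 3 or CIA+THz replicate 1 or 2, with a largest p of 0.127. The list of NF-kB feedback and targets (22 tested) had a median of -0.11, and its called member was Ccrl2, a chemerin-binding receptor that fell from 9.901, 11.1 and 7.87 to 5.02, 3.41 and 6.99 (-0.94 ± 0.28). The calls of Il1r2 and Ccrl2 ended with FPKM as deposited, and the call of Nlrc4 ended after quantile normalization. Nfkbia, the inhibitor that NF-kB itself induces, was 34.7, 38.6 and 43.1 against 29.4, 36.4 and 28.9, with overlap.

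Toll-like receptors and their adaptors (23 tested) had a median of -0.13, 4 lower and 2 higher at an unadjusted p under 0.05. Tlr2, the receptor of bacterial lipoproteins, was 12.2, 12.7 and 14.8 in CIA and 9.501, 10.6 and 9.69 in CIA+THz (-0.41 ± 0.13). Tlr3 was called higher at values of 0, 0 and 0.111 against 0.641, 0.4396 and 0.187, too low to be well-expressed. Of the prostaglandin and leukotriene genes (17 tested, median -0.21, and -0.02 after quantile normalization), Alox5ap, which presents arachidonic acid to 5-lipoxygenase, was 362, 418 and 334 against 280.2, 282 and 237 (-0.48 ± 0.12), and the prostaglandin receptor gene Ptger4 was called higher (7.39, 3.74 and 5.37 against 10.997, 8.71 and 10.1). The call of Ptger4 ended without CIA replicate 2, with a log2 fold change of 0.64. The calls of Tlr3 and Ptger4 held under all 4 scalings, a weak check for higher genes. Immediate early genes (22 tested) had a median of -0.15 (-0.02 after quantile normalization), none of them called. Ier2 was 72.3, 75.6 and 69.7 against 48.6, 51.9 and 48.2 (-0.55 ± 0.08), and Junb, a subunit of AP-1, 67.2, 79.9 and 86.7 against 56.4, 59.1 and 55.3 (-0.45 ± 0.11). Glucocorticoid response genes (14 tested) also had no call and a median of -0.10 (0.07 after quantile normalization), with the chemokine receptor gene Cxcr4 at 90.6, 125 and 118 against 76.9, 77.5 and 85.6 (-0.46 ± 0.14).

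The medians of the interferon lists had opposite signs. Of 30 genes stimulated by type I interferon 21 were lower, with a median of -0.20 relative to all genes and -0.09 after quantile normalization. At an unadjusted p under 0.05 only 1 was lower, against 7.33% of all genes. That gene was Isg15, the ubiquitin-like protein that interferon induces, which fell from 52.3, 29.1 and 27.2 to 24.4, 15.4 and 17.1 (-0.89 ± 0.29). The call of Isg15 ended without CIA replicate 1 or CIA+THz replicate 2 or 3, with a log2 fold change as near 0 as -0.59 and a largest p of 0.0694. Phf11d was called higher near 0 (0.402, 0 and 0.183 against 0.955, 0.685 and 0.705). Of 14 GTPases that interferon-gamma induces, 10 were higher, with a median of 0.25. Iigp1 was called higher (2.501, 1.52 and 3.53 against 4.86, 3.67 and 5.26), and Gbp9, a guanylate-binding protein, was 23.5, 22.8 and 17.3 against 33.97, 28.05 and 32.1 (0.57 ± 0.15). The call of Phf11d ended without CIA+THz replicate 1 or 3, with a largest p of 0.0703. The call of Iigp1 ended without CIA replicate 1 or 2 or CIA+THz replicate 1 or 3, with a log2 fold change as near 0 as 0.60 and a largest p of 0.101. Without CIA replicate 2 the log2 fold change of Phf11d was 1.21, in place of 1.85. The call of Isg15 ended with FPKM as deposited. These GTPases form clusters of near-identical genes. The difference between the lists was not tested. Neither class I (median -0.000665, 17 genes, and 0.16 after quantile normalization) nor class II antigen presentation (median 0.11, 10 genes) had a called member. H2-Ob, a class II gene of B cells, was 45.7, 46.7 and 41.2 against 55.6, 68.5 and 64.7 (0.50 ± 0.11), and H2-Aa, a class II alpha chain, 318, 354 and 280.4 against 321, 410.4 and 369, with overlap.

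Stress genes showed few differences. None of the 25 heat shock protein genes was called by limma, and 3 were lower and 0 higher at an unadjusted p under 0.05. Lower at that p were 7.33% of all genes and 16% of well-expressed genes. The direction turned on the deposited FPKM scale, where 4 members passed that p as higher and 0 as lower. There, 19 members had higher values and 1 was called higher. The median of the list was -0.08 relative to all genes and 0.02 after quantile normalization. Hspa8, a constitutive heat shock cognate protein, was 1069.5, 932 and 919.8 in CIA and 736, 774 and 745 in CIA+THz (-0.37 ± 0.11), Dnaja1, its co-chaperone, 29.9, 30.5 and 26.6 against 21.2, 19.8 and 21.2 (-0.48 ± 0.10), and the heat-inducible Dnajb1 12.04, 17.8 and 16.1 against 11.8, 13.5 and 11.6. Of 21 p53 targets none was called either, 2 being higher and 2 lower at that p, with a median of -0.07. Of all genes 5.89% were higher and 7.33% lower at that p. Gadd45a, which DNA damage induces, was 85.3, 75.1 and 86.7 against 68.1, 70.5 and 66.4 (-0.27 ± 0.09).

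Of 25 antioxidant and NRF2 targets 17 were lower, 7 of them at an unadjusted p under 0.05 and 2 called. Of well-expressed genes 61.9% were lower, 16% at that p. The list had a median of -0.20 (-0.05 after quantile normalization). Prdx5, a peroxiredoxin, fell from 88.3, 76.2 and 76.8 to 46.4, 45.96 and 51.8 (-0.74 ± 0.10), while Ctrl held 49.4, 41.7 and 29.9. Txn1, thioredoxin, fell from 65.002, 78.02 and 69.4 to 47.3, 37.9 and 46.4 (-0.69 ± 0.12). The call of Txn1 ended without CIA replicate 2 or CIA+THz replicate 2, with a log2 fold change as near 0 as -0.59. Hmox1, the heme oxygenase that NRF2 induces, was 27.1, 35.7 and 32.97 against 22.98, 18.4 and 19.2 (-0.66 ± 0.14), just under the threshold. In the integrated stress response list (25 tested, median -0.19), Asns, Ddit3 and Atf3 were called lower and Chac1 higher. Of all genes 1.6% were called lower and 2.94% higher. Asns, asparagine synthetase, was 13.02, 23.3 and 24.7 against 9.06, 13.8 and 10.9 (-0.82 ± 0.28), which overlap. The call of Asns ended without CIA replicate 2 or 3 or CIA+THz replicate 1 or 3, with a log2 fold change as near 0 as -0.65 and a largest p of 0.0821. Ddit3, the factor CHOP, fell from 11.4, 10.7 and 17.6 to 6.58, 9.84 and 8.07 (-0.674 ± 0.24). The call of Ddit3 ended without CIA replicate 3 or CIA+THz replicate 1 or 3, with a log2 fold change as near 0 as -0.45 and a largest p of 0.0919. Chac1, which degrades glutathione, was listed at 0 in all 3 CIA libraries and was 1.98, 1.096 and 3.36 in CIA+THz and 3.96, 0.667 and 1.69 in Ctrl. Atf3, a transcription factor that stress induces, was 5.98, 5.42 and 5.32 against 3.06, 2.42 and 3.58. The calls of Prdx5, Txn1, Asns, Ddit3 and Atf3 ended with FPKM as deposited, and the calls of Txn1 and Ddit3 ended with the upper-quartile factor, and the calls of Prdx5 and Txn1 ended after quantile normalization.

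Splicing factors and hnRNPs, the proteins that bind and cut nascent transcripts, were higher in CIA+THz as a group. Of 43 genes 31 were higher, 6 at an unadjusted p under 0.05 and 0 lower at that p, against 5.34% and 16% of well-expressed genes, with a median of 0.09 relative to all genes, 0.10 as deposited and 0.19 after quantile normalization. Hnrnpdl, whose own splicing tunes its level, was 18.6, 17.9 and 18.99 in CIA and 26.98, 27.5 and 28.1 in CIA+THz, and 25.5, 27.999 and 27.4 in Ctrl (0.57 ± 0.09). The SR proteins Srsf1 (22.5, 18.8 and 24.1 against 30.01, 30.6 and 27.2) and Srsf6 (60.5, 64.6 and 70.6 against 80.9, 85.4 and 87.4) were likewise without overlap. Naming list members by a small p favours such separation. Luc7l3, a splicing factor, was the called member (31.4, 14.5 and 13.4 against 31.7, 28.6 and 34.3, with overlap). The call of Luc7l3 ended without CIA replicate 2 or 3 or CIA+THz replicate 1, 2 or 3, with a log2 fold change as near 0 as 0.56 and a largest p of 0.146. The call of Luc7l3 held under all 4 scalings, a weak check for higher genes.

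Cholesterol synthesis and uptake genes (19 tested) had a median of 0.22 relative to all genes, with Sqle, squalene epoxidase, called higher (1.64, 2.25 and 2.36 against 3.04, 3.13 and 4.21). The call of Sqle ended without CIA replicate 1 or CIA+THz replicate 3, with a log2 fold change as near 0 as 0.55 and a largest p of 0.092. Srebf2, the master regulator of the pathway, was 33.8, 35.2 and 37.7 in CIA and 42.9, 44.4 and 39.7 in CIA+THz (0.25 ± 0.09), and Ebp, a sterol isomerase, 13.5, 12.04 and 11.4 against 9.13, 8.32 and 8.75 (-0.49 ± 0.12), so that well-expressed members lay on both sides. Cell cycle and DNA replication genes (31 tested) had a median of 0.14 and no called member. Mki67, an antigen of dividing cells, was 26.9, 18.2 and 22.3 against 13.2, 18.8 and 21.9, with overlap. Clock genes (17 tested, median 0.13) were mostly low, Tef being called higher (1.47, 2.31 and 2.27 against 2.87, 5.18 and 3.35) and Hlf lower (0.815, 1.06 and 0.497 against 0.255, 0 and 0.141). The call of Tef ended without CIA replicate 1 or CIA+THz replicate 2 or 3, with a log2 fold change as near 0 as 0.62 and a largest p of 0.0968. The call of Sqle ended after quantile normalization. In the BCL2 family (17 tested, median -0.14), Bcl2 was the called member, while the pro-apoptotic Bcl2l11 was 52.4, 52.95 and 46.4 against 38.9, 37.6 and 39.6 (-0.38 ± 0.09) and Mcl1, another protective member, 376, 405 and 396 against 331, 341 and 337 (-0.22 ± 0.08). The panel of 17 common reference genes had a median of -0.11 (0.04 after quantile normalization) and no call. Rab7 in it was 156, 153 and 151 against 127, 125 and 129 (-0.27 ± 0.07), and 0.00355 with FPKM as deposited.

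**Figure D4:**
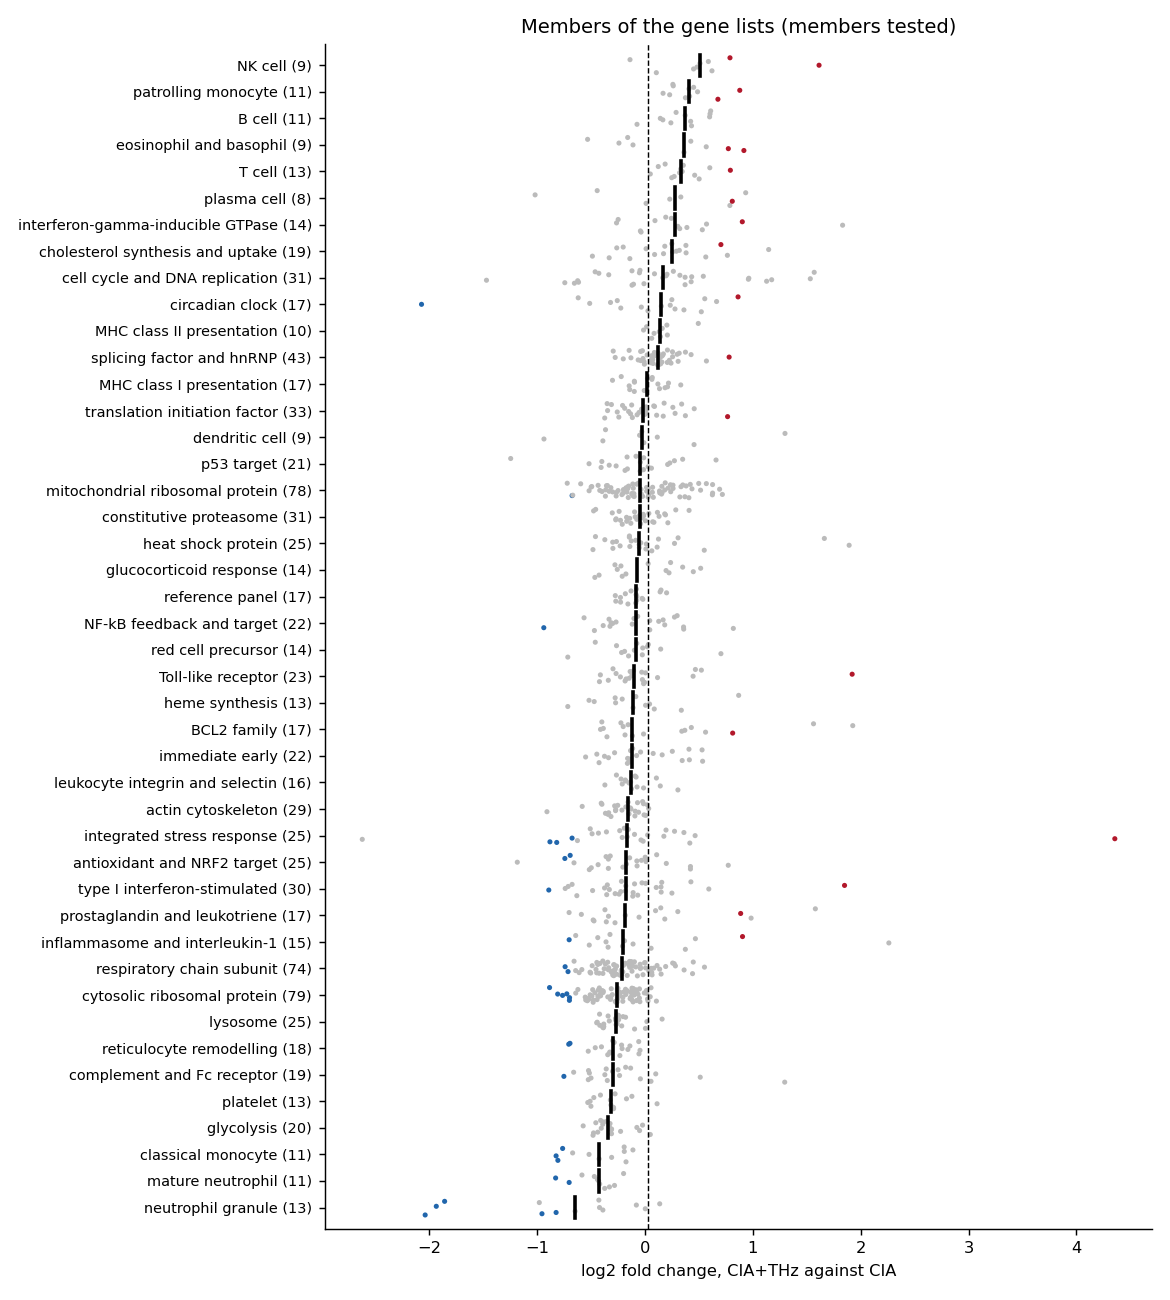
Log2 fold change of CIA+THz against CIA (horizontal axis) of every tested member of the 44 gene lists (rows, number of members tested in brackets), where a point is a gene, grey if not called, red if called higher and blue if called lower, black ticks are list medians and the dashed line is the median of all genes tested. The lists run from neutrophil granule genes at the bottom to NK cell genes at the top, and their called members number at most 6.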

How the data were processed

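Blood RNA of 9 mouse libraries, 3 each in Ctrl, CIA and CIA+THz, was sequenced in paired-end mode from TruSeq RNA V2 libraries, a kit that does not mark strand, and grouped here by the labels. Nothing in the labels or files names a batch. The authors deposited 1 matrix of FPKM values per gene and library, with no counts. The labels' processing notes name bcl2fastq (2.0), HISAT2, StringTie and DESeq2 and the build mm10, and the annotation and strand setting are not given in the sources used here.

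FPKM values were divided by a median-of-ratios factor per library. Genes reaching an average of 0.1 rescaled FPKM over the 9 libraries were kept, transformed as log2(value + 0.1) and fitted for the 6 libraries of both arthritic groups with limma 3.58.1 in R 4.3.3, with a trend on the mean and Benjamini-Hochberg adjustment over all genes kept. Fold changes are on this log2(value + 0.1) scale, which understates changes of low genes, and errors are SE of the fit. The call, an unadjusted p under 0.05 with an absolute log2 fold change above 0.67, follows the thresholds of the study's methods. An exact permutation test of 3 against 3 cannot go below 0.1, so none was used. As nothing says that libraries came from separate animals, p-values measure the spread between these libraries.

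Named genes are the 12 higher and 12 lower called well-expressed genes with the largest changes and no overlap between groups, the 8 most abundant genes, and in each of 44 gene lists up to 4 well-expressed members with the smallest p. A small p favours values without overlap, and the share of all genes without overlap is not given. Other called list members, list members given for their role and the genes of the closing observations were named after their values were seen. The members, lists and rule were chosen with earlier results of these data known. Lists are described by counts and medians, without a set test. Lengths and GC contents came from GENCODE transcripts for 12198 of the 12366 genes, 4177 of them well-expressed, and promoters from RefSeq. Python 3.11.15, pandas 2.3.3 and matplotlib 3.10.9 were used.

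Tested on simulated data for this comparison with 12171 genes, the call found 187 of 200 genes changed 4-fold and 315 unchanged genes. At an adjusted p under 0.05 it found 159 and 8. Alternatives were other scalings, pseudocounts, filters, thresholds and fits, a replicate block, and corrections for GC content or length. Quantile normalization and the length correction were added after the data were seen. Hemoglobin genes and a few further genes are not reported here.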

Additional observations from a re-analysis of the deposited data

How the results depend on the processing

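FPKM holds no counts, so the depth that limits each value is unknown, and with 3 libraries a group the precision rests on the spread between libraries. The counts of called genes depended on the scaling. With FPKM as deposited there were 1199 called genes, 1133 higher and 66 lower, and 200 well-expressed ones, 188 higher and 12 lower. Quantile normalization gave 40 higher and 35 lower among well-expressed genes. A pseudocount of 1 gave 283, 160 higher and 123 lower, and a mean of at least 1 gave 241 higher. The p threshold without the fold threshold took 1634, 728 higher and 906 lower, and 897 well-expressed ones, 225 higher and 672 lower. At an adjusted p under 0.05 by limma there were 0 in each. With well-expressed set at a mean of at least 5 there were 152 called, 68 of them higher, and at 20 there were 49, 7 of them higher. Leaving out each library in turn gave 484 to 745 called genes, 288 to 500 higher and 191 to 245 lower, and 81 to 114 well-expressed ones, 16 to 39 higher and 57 to 80 lower. Why these counts moved was not tested.

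Of the 64 called genes named in the text, none changed sign under any alternative. The number whose call ended was 24 with FPKM as deposited, 14 after quantile normalization, 14 with the length correction, 11 with the GC correction, 13 with a pseudocount of 1 and 13 to 21 without 1 library. With the length correction the medians of the mitochondrial ribosomal protein and dendritic cell lists, relative to all genes, turned to 0.03 and 0.04.

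The replicate numbers do not pair the libraries. Correlations of the deviations from the group means between same-numbered libraries were -0.05, 0.000796 and -0.05. With the replicate number as a block (replicate block) 506 genes were called, 327 higher and 179 lower, and 82 well-expressed ones, 27 higher and 55 lower.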

Other observations

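Some genes varied widely between libraries of 1 group. In 19 of the 4212 well-expressed genes, the highest and the lowest library of at least 1 group of 3 differed by 10-fold or more after adding 0.1 to each value, and 3 of these genes were called. They were found after the values were seen. Cebpb, a transcription factor of myeloid cells, was 102, 4.56 and 106 rescaled FPKM in CIA, 61.6, 2.08 and 1.52 in CIA+THz and 59.1, 58.01 and 46.9 in Ctrl, so that 2 CIA+THz libraries and 1 CIA library held far less than the others. Mdm4 was 44.04, 2.49 and 52.4 in CIA and 61.8, 48.7 and 54.2 in CIA+THz. Neither was called.

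Pairs of like-named genes had complementary values. Il4i1 was 0, 2.41 and 0 in CIA and 1.57, 4.103 and 2.37 in CIA+THz and was called higher, while Il4i1b was 7.498, 0 and 5.02 in CIA, was listed at 0 in all 3 CIA+THz libraries and was called lower, so that each of these 6 libraries listed 1 of the 2 at 0. Their sum, 7.498, 2.41 and 5.02 in CIA and 1.57, 4.103 and 2.37 in CIA+THz, overlapped between the groups. The calls of both held only without CIA replicate 2 and ended without each other library in turn. Without CIA replicate 2 their log2 fold changes were 4.69 and -5.96. Sap18 was 3.14, 8.995 and 33.8 against 29.96, 32.5 and 26.998, Sap18b 29.6, 29.4 and 2.43 against 11.1, 2.76 and 2.16, and their sum 32.8, 38.4 and 36.2 and 41.1, 35.3 and 29.2. The sums of Sap18 and Sap18b overlapped between the groups too, and neither gene was called.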
